A study of Mus musculus with 16 samples.

Results

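The 10 genes described here, Bcl2l1, Bcl2, Mcl1, Bax, Bak1, Bid, Bik, Bcl2l11, Bbc3 and Pmaip1, are the survival and death genes of the Bcl2 family, and they were followed over the 8 conditions of an array study of mouse trabecular osteoblasts (TOs). The members were all probes whose symbol on the array, or whose current symbol, is one of these names. That gave 25 of the 25697 probes on the array, for 9 of the 10 genes, since the probe annotation used here listed 0 probes for Bax. A probe was tested where it was detected above the negative control beads on at least 2 of the 16 arrays, and 19 of the 25 member probes passed, of 15279 in all. The remaining 6 probes, 4 for Bcl2 and 2 for Bcl2l11, have no test. Levels are log2 intensities after background correction and quantile normalization, and each gene is described first by its reference probe, the tested probe with the highest mean. Levels of different probes are not set against each other, because probes differ in how strongly they bind.

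The TOs were primary cells from a long bone of C57BL/6 mice taken 1 day before birth, of 2 genotypes, Pthrp+/+ and Pthrp-/-, the latter without the gene that encodes PTHrP (parathyroid hormone-related protein). The sample labels name the bone as tibia in one field and femur in another. TOs of all groups were grown on MicroHex microcarriers for 6 days, at 1g in stationary agarose-coated plasticware or at 0g in a rotating vessel that simulates microgravity, and were either given medium changes alone or treated with PTHrP1-36, the amino-terminal peptide of the hormone, at 10 nM for 2 h per day. Each combination of genotype, gravity and treatment was measured on 2 arrays (n = 2 for every condition mean below), from duplicate experiments that the sources do not tie to separate animals, and p-values therefore cover only how far duplicate cultures differed, which may be technical. Gravity cannot be told apart from the change of vessel and of movement, and Pthlh, the gene that was ablated, had 0 probes in the annotation, so the arrays do not check the genotype.

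Proteins of the Bcl2 family decide whether the outer mitochondrial membrane stays sealed. Pro-survival members (Bcl2, Bcl-xL from Bcl2l1, and Mcl1) hold in check the effectors Bax and Bak1, which open the membrane and release cytochrome c to the apoptosome and its caspases. BH3-only proteins relay stress to this switch: Bim from Bcl2l11, Puma from Bbc3 and Noxa from Pmaip1 bind pro-survival members, Bid links death receptors to mitochondria once it is cleaved, and Bik acts at the endoplasmic reticulum. Much of this control lies in protein cleavage, phosphorylation and turnover, which RNA levels do not show.

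Between 12161 and 13560 probes were detected per array, and duplicate arrays had correlations of 0.989 to 0.997 over the tested probes. The effects of 0g over all tested probes ran in opposite directions in the 2 genotypes, with a correlation across probes of -0.34 without treatment and -0.25 with it, over comparisons that share no array (probes are not independent replicates). Labels were kept as given; an exchange of 0g and 1g among the Pthrp-/- arrays would turn the sign of every Pthrp-/- gravity comparison, and whether one took place was not tested. Of 12 listed osteoblast markers 8 were tested, and their summed signal was 17407 to 27326 over the 16 arrays; Ibsp, a bone matrix gene, was not detected on any Pthrp-/- array. Macrophage markers, of which 12 of 15 listed were tested, summed to 55800 to 90060 on Pthrp+/+ arrays and to 443 to 645 on Pthrp-/- arrays, where C1qa, C1qb, C1qc, Adgre1 and Ptprc were not detected on any array. In bulk RNA, fewer cells of a type and less RNA per cell cannot be told apart.

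At least 1 difference among the 8 conditions was called for 14 of the 19 member probes (moderated F test of limma, Benjamini-Hochberg adjusted p under 0.05 over all tested probes), where 60.7% of all tested probes were called. The condition means of the reference probe spanned 2.72 log2 units for Bik, 1.58 for Bcl2l11, 1.52 for Bcl2l1, 1.51 for Pmaip1, 1.17 for Bid, 1.09 for Bbc3, 0.89 for Bcl2, 0.55 for Mcl1 and 0.52 for Bak1. The probe of Bak1 was not called (adjusted p = 0.388). The plot of levels by condition shows every array for these 9 probes.

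**Figure D1:**
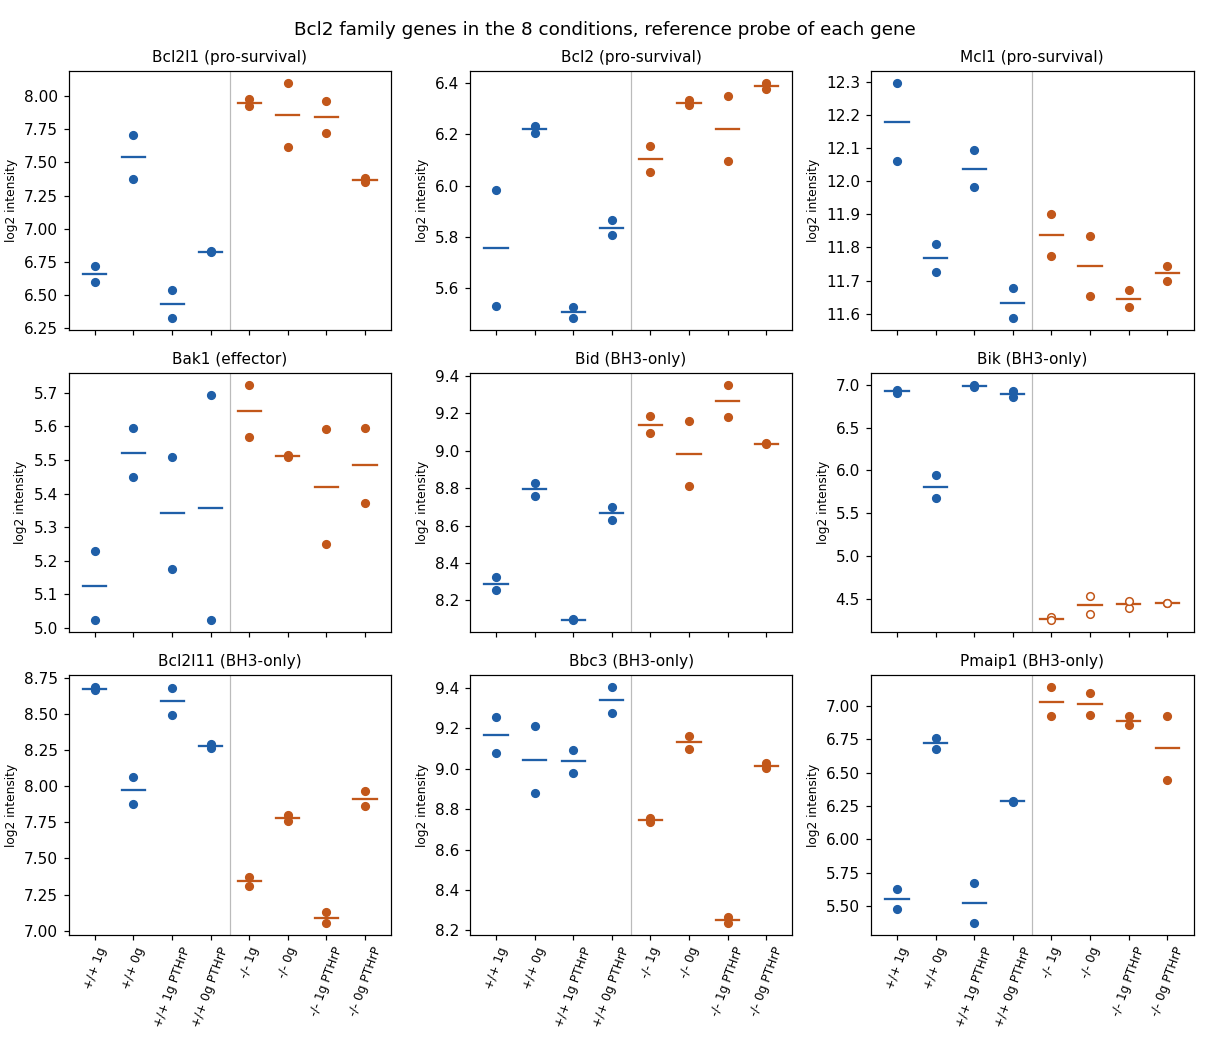
Log2 intensity of the reference probe of each of the 9 genes with a probe, on the 2 arrays (points) of each of the 8 conditions, with the condition mean (line); blue is Pthrp+/+, orange Pthrp-/-, and open points were not above the negative controls. Bik was detected on all 8 Pthrp+/+ arrays and on 0 of the 8 Pthrp-/- arrays, and Bak1 varied over 0.52 log2 units.

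The first comparison asks what 0g did to these genes in Pthrp+/+ TOs. Without treatment, 9 of the 19 member probes were called at 0g against 1g, where 24.5% of all tested probes were called. 5 probes were higher (12.1% of all probes) and 4 were lower (12.4%). By gene, Bcl2l1, Bcl2, Bid and Pmaip1 rose, while Bik, Bcl2l11 and Mcl1 fell. The 4 genes that rose were 2 pro-survival and 2 BH3-only members, and the 3 that fell were 1 pro-survival and 2 BH3-only members.

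Among pro-survival genes, the Bcl2l1 reference probe read 6.72 and 6.60 at 1g and 7.71 and 7.38 at 0g in untreated Pthrp+/+ TOs. The 0g arrays lie above both 1g arrays, a rise of 0.88 ± 0.16 on the log2 scale (SE; 1.84-fold, adjusted p = 0.00106). The other 2 Bcl2l1 probes were higher at 0g by 0.34 and 0.41 and were not called. Bcl2 read 5.98 and 5.53 at 1g against 6.23 and 6.21 at 0g. The 1g arrays were far apart for this probe, and the rise of 0.46 ± 0.14 (1.38-fold, adjusted p = 0.0232) was not called from the authors' normalized values nor without array 2 of the 1g group or either array of the 0g group. Mcl1, whose short-lived protein restrains Bak1, read 12.06 and 12.30 at 1g and 11.81 and 11.72 at 0g. It fell by 0.41 (SE 0.11, 0.751-fold, adjusted p = 0.0159), a call that was lost without array 2 of either group.

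The effector Bak1 read 5.23 and 5.02 at 1g and 5.45 and 5.59 at 0g. Its groups did not overlap, but the difference of 0.40 was not called. Bax was not analysed here.

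Among BH3-only genes, Pmaip1 read 5.63 and 5.48 at 1g and 6.68 and 6.76 at 0g. Its 2 arrays at 0g were about a log2 unit above those at 1g, and it rose by 1.17 ± 0.15 (2.25-fold, adjusted p = 8.59e-05). A second Pmaip1 probe was undetected on both 1g arrays, and was at least 1.29-fold higher at 0g (adjusted p = 0.0167), a call lost without any 1 of the 4 arrays compared. Bid read 8.26 and 8.32 at 1g and 8.76 and 8.83 at 0g, a rise of 0.50 ± 0.12 (adjusted p = 0.00685). The change of Bid was larger than the spread of its replicates, though it was not called without array 1 of the 1g group.

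Bik fell the most of the members. It read 6.95 and 6.91 at 1g and 5.94 and 5.68 at 0g, a fall of 1.12 on the log2 scale (SE 0.11, 0.461-fold, adjusted p = 7.18e-06). Bcl2l11, which encodes Bim, read 8.66 and 8.68 at 1g and 8.07 and 7.87 at 0g. It fell by 0.70 (SE 0.10, adjusted p = 0.000236), and its second probe fell by 0.81 (SE 0.17, adjusted p = 0.00275). Bbc3 read 9.08 and 9.26 at 1g and 8.88 and 9.21 at 0g, groups that overlap, and was not called. Macrophage markers moved in the same direction as Bik and Bcl2l11: 11 of 12 tested were lower at 0g (median log2 difference -1.06), and their summed signal went from 87918 to 90060 at 1g to 55800 to 56674 at 0g. All 3 tested adipocyte markers were lower too (median -1.09). Of 8 tested osteoblast markers, 3 were lower and 1 was higher (median -0.39). The part of any of these cell types in the falls of Bik and Bcl2l11 was not tested.

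With PTHrP1-36 present, 3 member probes were called at 0g against 1g in Pthrp+/+ TOs (7.30% of all probes). Bid rose by 0.57 ± 0.12 (adjusted p = 0.00939) and Pmaip1 by 0.76 ± 0.15 (adjusted p = 0.00736), and Mcl1 fell by 0.41 (SE 0.11, adjusted p = 0.0445). The count was 0 or 1 without any 1 of the 4 arrays compared. Bik read 6.97 and 7.00 at 1g and 6.86 and 6.93 at 0g, a difference of -0.09 ± 0.11 that was not called.

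In Pthrp-/- TOs, Bcl2l11 was called at 0g in the opposite direction. Without treatment 2 probes were called (8.74% of all probes), both for Bcl2l11, and with treatment 2 (8.23%), for Bcl2l11 and Bbc3. All of them were higher at 0g, as were 4.77% and 4.52% of all probes. Bcl2l11 read 7.31 and 7.37 at 1g and 7.76 and 7.80 at 0g without treatment. The arrays did not overlap, and it rose by 0.44 ± 0.10 (adjusted p = 0.0209), opposite to its fall in Pthrp+/+ TOs. With treatment it read 7.05 and 7.13 against 7.86 and 7.96 and rose by 0.82 ± 0.10 (adjusted p = 0.000195). Bbc3, a target of p53 that encodes Puma, read 8.24 and 8.27 at 1g and 9.03 and 9.00 at 0g with treatment, a rise of 0.76 ± 0.12 (1.70-fold, adjusted p = 0.00102). Without treatment, both Bcl2l11 calls were lost without array 1 of either group, and that of the reference probe also without array 2 of the 1g group. The treated calls were kept when each of the 16 arrays was left out in turn.

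**Figure D2:**
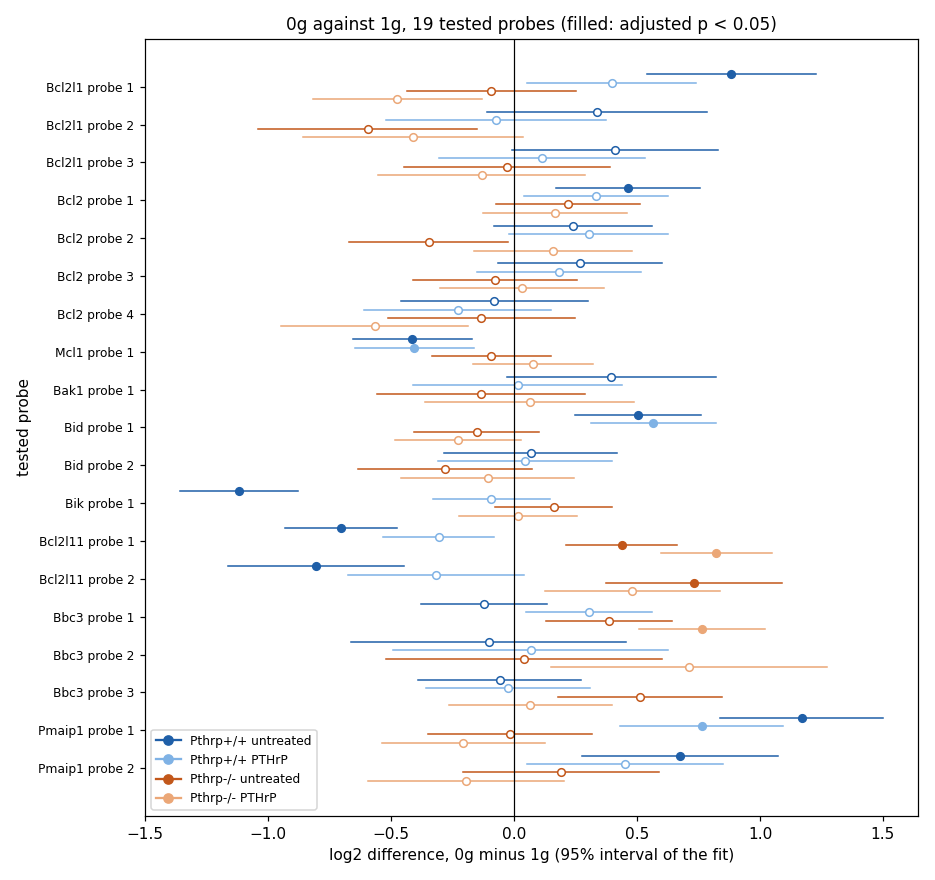
Log2 difference between 0g and 1g (x axis, with the 95% interval of the fit) for the 19 tested member probes (y axis) in Pthrp+/+ (blue) and Pthrp-/- (orange) TOs, untreated (dark) or treated with PTHrP1-36 (light), with filled points at an adjusted p under 0.05. Both tested Bcl2l11 probes lie below 0 in untreated Pthrp+/+ TOs, at -0.70 and -0.81, and above 0 in untreated Pthrp-/- TOs, at 0.44 and 0.73.

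The difference between the genotypes in the response to 0g was tested as an interaction. It was called for 8 member probes without treatment (24.2% of all probes) and for 5 with it (11.2%). For Bcl2l11 the response was higher in Pthrp-/- TOs by 1.14 ± 0.15 without treatment (adjusted p = 8.77e-05) and by 1.13 ± 0.15 with it (adjusted p = 0.000208). For Bcl2l1, Bid and Pmaip1 it was lower in Pthrp-/- TOs without treatment (-0.97, -0.66 and -1.19) and with it (-0.87, -0.79 and -0.97). For Bik it was higher by 1.28 without treatment, with the Pthrp-/- level undetected. Without treatment the interaction was also higher for 8 of 12 macrophage markers (median 0.97), 3 of 3 adipocyte markers and 4 of 8 osteoblast markers. It was lower for 1 osteoblast marker. With treatment it was higher for 2 macrophage, 1 adipocyte and 2 osteoblast markers, and lower for 1 osteoblast marker. The part of these cell types in the member interactions was not tested.

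Ablation of Pthrp was compared at each gravity and treatment. These comparisons use some arrays of those above (the untreated Pthrp+/+ arrays at 1g serve in both), so similar directions in them are not independent. At 1g without treatment, 16 of the 19 member probes were called (50.7% of all probes), 10 higher (29.9%) and 6 lower (20.7%) in Pthrp-/- TOs. Under cyclic loess normalization 5 were higher and 6 lower, where 3208 of all tested probes were higher and 4016 lower. At 1g with treatment 13 were called (49.4%). At 0g the counts were 4 without treatment (30.5%) and 7 with it (32.4%). The median of all tested probes was itself 0.12 above 0 at 1g without treatment, and -0.01 under cyclic loess.

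The pro-survival gene Bcl2l1 read 7.97 and 7.92 in Pthrp-/- TOs at 1g, against 6.72 and 6.60 in Pthrp+/+ TOs. It was higher by 1.29 ± 0.16 (2.45-fold, adjusted p = 1.44e-05), and by 1.41 ± 0.16 with treatment (adjusted p = 6.07e-06). At 0g without treatment its arrays read 8.10 and 7.61 in Pthrp-/- against 7.71 and 7.38 in Pthrp+/+ TOs. These overlap, and no Bcl2l1 probe was called there. At 0g with treatment the reference probe of Bcl2l1 was higher by 0.54 (adjusted p = 0.019) and another by 0.59 (adjusted p = 0.0339). Both calls were lost without Pthrp+/+ array 2 or either Pthrp-/- array. Bcl2 was higher in Pthrp-/- TOs at 1g without treatment at 3 of its 4 tested probes, by 0.35, 0.54 and 0.45. The fourth, made to another transcript, was not detected on either Pthrp-/- array there and was at least 1.30-fold lower (adjusted p = 0.0375). All 4 of these calls were lost without Pthrp-/- array 1. At 0g without treatment the fourth probe was again undetected in Pthrp-/- TOs and was at least 1.23-fold lower (adjusted p = 0.0366), a call kept under 5 of the 12 alternatives and lost without array 1 of the Pthrp+/+ group or either Pthrp-/- array. At 0g with treatment the reference probe was higher by 0.55 (adjusted p = 0.00659). At 1g without treatment the reference probe of Bcl2 had an adjusted p of 0.046, and its call was kept under 4 of the 12 alternatives. At 1g with treatment it was higher by 0.72 (adjusted p = 0.000601), a call kept under all 12 alternatives and without each array in turn. Another Bcl2 probe was higher there by 0.56 (adjusted p = 0.0085) and another by 0.40 (adjusted p = 0.0383). The last of these calls was kept under 6 of the 12 alternatives. Mcl1 was lower by 0.34 (SE 0.11, adjusted p = 0.0211) at 1g without treatment. That call was lost without Pthrp+/+ array 2, without Pthrp-/- array 1 and in a fit of only the groups compared. The smallest difference with 1 array left out was -0.22. At 1g with treatment Mcl1 was lower by 0.39 (adjusted p = 0.0105), a call kept under all 12 alternatives and lost without array 1 of either group.

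Bak1 read 5.57 and 5.72 in Pthrp-/- TOs against 5.23 and 5.02 at 1g without treatment. Its difference of 0.52 ± 0.20 was called (adjusted p = 0.0411), the only comparison of the 12 in which it was, and 7 of 12 alternatives kept the call, which was lost without any 1 of the 4 arrays compared. The test of any difference among the 8 conditions did not call Bak1.

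Bik was not detected on any Pthrp-/- array, where it read 4.25 to 4.53. Against Pthrp+/+ TOs it was at least 3.87-fold lower at 1g without treatment (adjusted p = 1.9e-10), at least 4.22-fold at 1g with treatment (adjusted p = 3.03e-10), at least 1.78-fold at 0g without it (adjusted p = 4.25e-07) and at least 3.87-fold at 0g with it (adjusted p = 8.12e-10). No other single probe was called in all 4 comparisons. The genes whose 8 condition means followed Bik most closely were Kif15 (Pearson r = 0.9996), Hmgb2 (r = 0.9991) and Ambp (r = 0.9991), chosen as the 3 highest correlations over 8 conditions that share arrays. All 12 tested macrophage markers were also lower in Pthrp-/- TOs at 1g (median -6.81 untreated, -6.91 treated). The 3 tested adipocyte markers were lower there without treatment. Of 8 tested osteoblast markers, 6 were lower and 0 higher at 1g without treatment (median -0.88). At 0g without treatment, 11 of 12 macrophage markers were lower (median -5.80). There 1 of 3 adipocyte markers was lower, and of 8 osteoblast markers 2 were lower and 1 higher (median -0.14). With treatment at 0g, 11 macrophage, 2 adipocyte and 4 osteoblast markers were lower, and 1 adipocyte marker was higher. The low level of Bik thus lay beside lower macrophage markers at both gravities, and beside fewer lower osteoblast markers at 0g than at 1g. The part of these cell types in it was not tested.

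Pmaip1 read 6.92 and 7.14 in Pthrp-/- against 5.63 and 5.48 in Pthrp+/+ TOs at 1g, a rise of 1.48 ± 0.15 (2.79-fold, adjusted p = 2.72e-06). Bid read 9.09 and 9.18 against 8.26 and 8.32, a rise of 0.85 ± 0.12 (adjusted p = 4.7e-05). Both were higher again with treatment, by 1.37 and 1.17. Bcl2l11 read 7.31 and 7.37 against 8.66 and 8.68 and fell by 1.33 (SE 0.10, 0.397-fold, adjusted p = 1.54e-07), and its second probe fell by 1.48. With treatment it was at 0.354-fold (adjusted p = 4.79e-08). Bbc3 fell by 0.42 without treatment (SE 0.12, adjusted p = 0.00947; not called without Pthrp+/+ array 2) and by 0.78 with it (adjusted p = 9.63e-05). At 0g without treatment the reference probe of Bbc3 was not called, but a dimmer probe was higher by 0.52 (SE 0.15, adjusted p = 0.0214). That call was lost without Pthrp+/+ array 2, without Pthrp-/- array 1 (the smallest of these differences was 0.30), under cyclic loess, with the authors' values, with array weights and in a fit of only the groups compared. The second Pmaip1 probe was also higher there, by 0.56 (adjusted p = 0.0337), a call lost without any 1 of the 4 arrays compared. The reference probes of Pmaip1, Bid and Bcl2l11 were not called at 0g without treatment. Their means were 7.02 in Pthrp-/- against 6.72 in Pthrp+/+ TOs for Pmaip1, 8.99 against 8.79 for Bid and 7.78 against 7.97 for Bcl2l11. At 0g with treatment Bid was higher by 0.37 (adjusted p = 0.0275). Bcl2l11 was lower there by 0.37 (adjusted p = 0.0161) and at its second probe by 0.52 (adjusted p = 0.0284). Each of these calls was lost without Pthrp+/+ array 2 and without Pthrp-/- array 1. The counts at 1g came to 12 and 13, in place of 16 and 13, when the Pthrp-/- arrays labelled 0g replaced those labelled 1g, an alternative chosen after seeing the data.

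**Figure D3:**
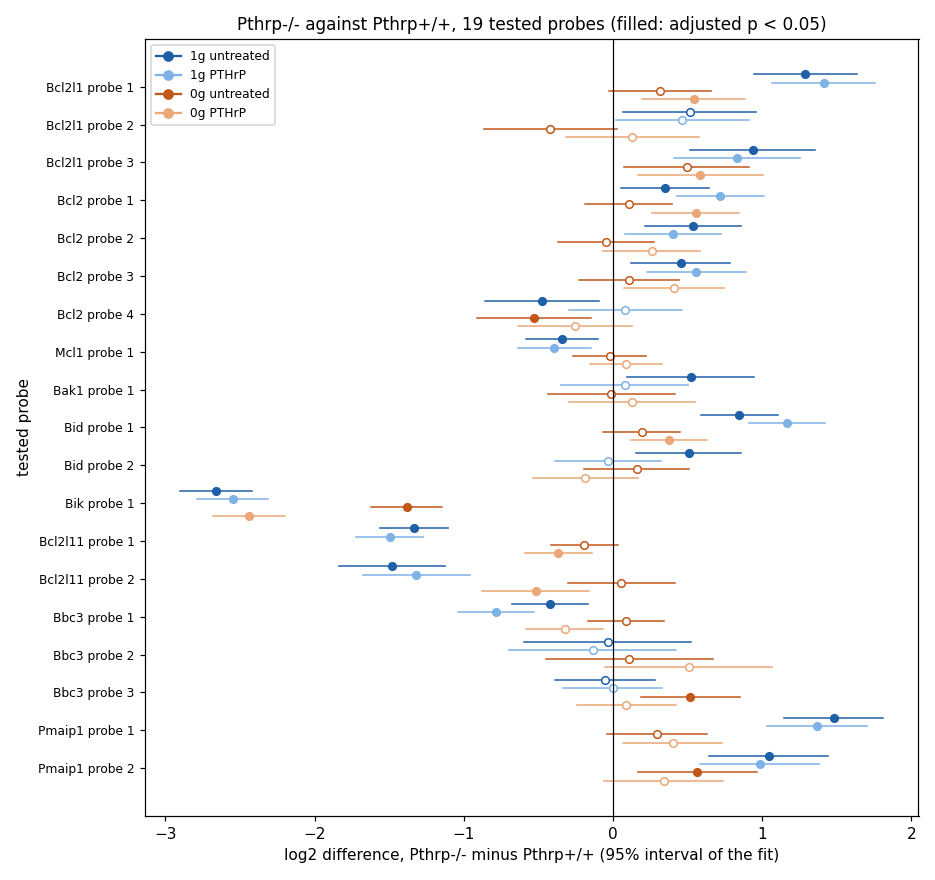
Log2 difference between Pthrp-/- and Pthrp+/+ TOs (x axis, with the 95% interval of the fit) for the 19 tested member probes (y axis) at 1g (blue) and 0g (orange), untreated (dark) or treated (light), with filled points at an adjusted p under 0.05. Bik lies between -2.66 and -1.38 in the 4 comparisons, on an undetected Pthrp-/- level, and the untreated 1g value of Pmaip1 is 1.48.

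The treatment comparisons ask what PTHrP1-36 did to these genes. In Pthrp+/+ TOs at 1g, 0 of the 19 probes were called by limma (0.674% of all probes), 0 reached an unadjusted p under 0.05, and the model of Wright and Simon also called 0. At 0g, 2 were called (7.42%). Bik read 6.86 and 6.93 with treatment, against 5.94 and 5.68 without it, and rose by 1.08 ± 0.11 (2.12-fold, adjusted p = 0.000136). The treated 0g level lay beside the 1g levels of 6.91 to 7.00. Bcl2l1 read 6.83 and 6.83 against 7.71 and 7.38 and fell by 0.71 (SE 0.16, 0.61-fold, adjusted p = 0.0158). That call was lost without array 1 of the untreated group or either array of the treated group. It was also lost with the authors' values and in a fit of only the groups compared. Macrophage markers were higher with treatment at 0g in 6 of 12, a median of 0.49, and their summed signal was 69571 to 71916. Their part was not tested.

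In Pthrp-/- TOs at 1g, 1 probe was called (2.94%), the reference probe of Bbc3, lower by 0.49 (SE 0.12, adjusted p = 0.0419), from 8.75 and 8.74 to 8.24 and 8.27. That call was lost without any 1 of 12 arrays, including some outside the comparison, and with a replicate block. At 0g, 0 were called (1.98%) by limma or by the model of Wright and Simon. There 3 reached an unadjusted p under 0.05, 2 for Bcl2l1 and 1 for Pmaip1, each lower with treatment. The share of all probes at that unadjusted limit is not given, here or for Pthrp+/+ TOs at 1g. These unadjusted counts are therefore not read as results about the members. Bik was undetected in all Pthrp-/- groups, so no response of it to treatment could be seen there.

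**Figure D4:**
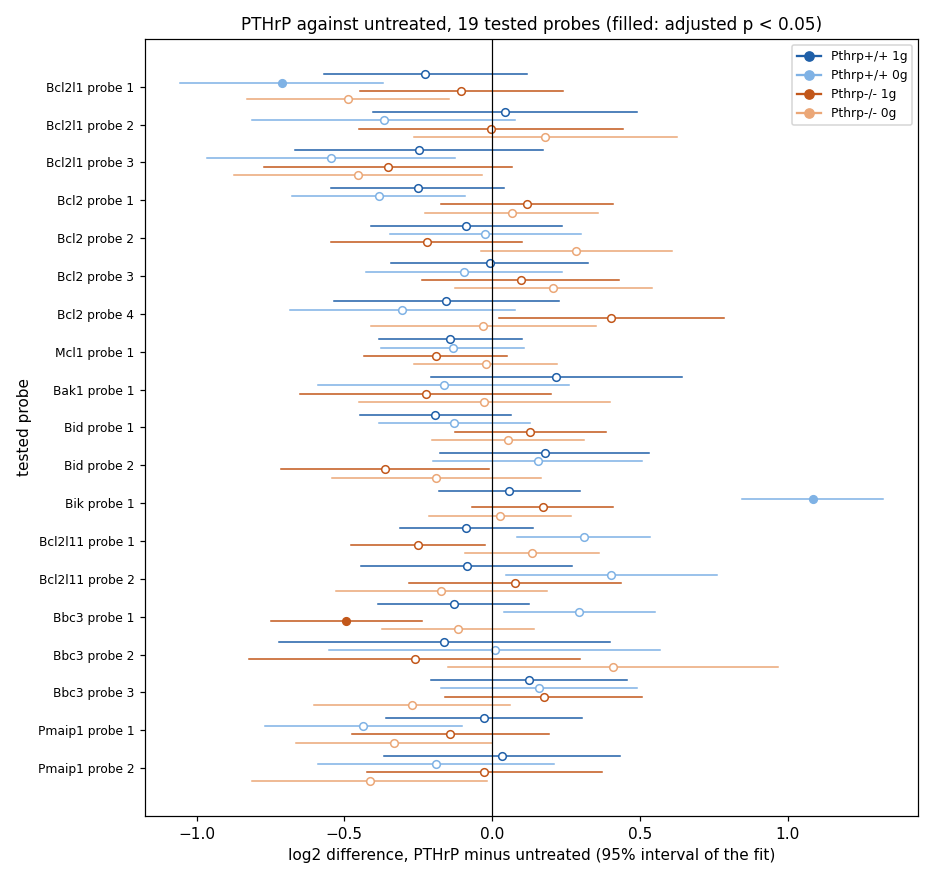
Log2 difference between TOs treated with PTHrP1-36 and untreated TOs (x axis, with the 95% interval of the fit) for the 19 tested member probes (y axis) in Pthrp+/+ TOs at 1g and 0g (blue, dark and light) and in Pthrp-/- TOs at 1g and 0g (orange, dark and light), with filled points at an adjusted p under 0.05. The 2 called probes of Pthrp+/+ TOs at 0g are Bik at 1.08 and Bcl2l1 at -0.71.

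The treatment by gravity interaction in Pthrp+/+ TOs was called for 1 member probe (2.75% of all probes), and the treatment by genotype interaction at 0g for 1 (1.92%), Bik in each case. The values were 1.03 ± 0.16 (adjusted p = 0.00362) and -1.06 ± 0.16 (adjusted p = 0.00519). In the second, the Pthrp-/- side of the difference was undetected. The first interaction was also higher for 6 of 12 macrophage markers (median 0.71), 2 adipocyte markers and 1 osteoblast marker. The second was lower for 3 macrophage markers (median -0.37) and 1 adipocyte marker, and was called for 0 osteoblast markers. The part of these cell types was not tested.

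Other genes of the pathway were followed in lists chosen with earlier results of these data in view. Of 13 listed caspases and apoptosome genes, 10 were tested, and in untreated Pthrp+/+ TOs 5 were lower at 0g and 0 higher, with a median of -0.38 against 0.04 over all 10438 tested genes (26.4% of them called). Casp2 fell from a mean of 10.18 to 9.35 and Casp4, an inflammatory caspase, from 8.34 to 7.44. With ablation at 1g, 7 were lower and 1 was higher (52.5% of all genes called, list median -0.64). Casp1, which matures interleukin-1 in macrophages and other cells, was not detected in Pthrp-/- TOs and was at least 73.9-fold lower, and Cycs, cytochrome c, was higher by 0.96 ± 0.20 (adjusted p = 0.00141). Macrophage markers were lower beside these genes in both comparisons, 11 of 12 at 0g (median -1.06) and 12 of 12 with ablation (median -6.81). Of 8 tested osteoblast markers, 3 were lower and 1 higher at 0g, and 6 were lower and 0 higher with ablation. The part of these cell types in the falls of the caspases was not tested.

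Among 10 tested of 17 further Bcl2 family members, 4 were called at 0g in untreated Pthrp+/+ TOs (26.4% of all genes), of which 2 rose and 2 fell. Bcl2l2, a pro-survival member, rose by 0.42 ± 0.09 (adjusted p = 0.00466) and the BH3-only gene Bad by 0.39 ± 0.11 (adjusted p = 0.0169). Bmf, another BH3-only gene, fell by 0.75 (SE 0.25, adjusted p = 0.041), and Bnip3l by 0.54 (SE 0.14, adjusted p = 0.0137). With ablation at 1g the same list gave 2 higher and 2 lower (52.5% of all genes called). Of 7 tested death receptor genes, 2 rose and 2 fell at 0g (26.4% of all genes called), with Tnfrsf12a, the receptor of TWEAK, up by 1.09 ± 0.10 (adjusted p = 4.93e-06), and 3 rose and 3 fell with ablation (52.5%). Of 7 tested transcription factors of BH3-only genes, 1 rose and 0 fell at 0g (26.4% of all genes called). With ablation 3 were higher and 2 lower (52.5%). Fos, an AP-1 subunit, was lower by 3.54 (SE 0.15, adjusted p = 1.96e-10) and Atf4 by 0.28 (SE 0.11, adjusted p = 0.0478), while Foxo1, a forkhead factor, was higher with ablation by 1.46 ± 0.16 (adjusted p = 4.65e-06), and Ddit3 by 1.53 ± 0.20 (adjusted p = 2.2e-05). The receptor gene Pth1r was not called for 0g in untreated Pthrp+/+ TOs (-0.21 ± 0.20, adjusted p = 0.527). It was higher in Pthrp-/- TOs at 1g with treatment by 0.63 (adjusted p = 0.0195) and at 0g without it by 0.59 (adjusted p = 0.0428), and was not called in the other 2 ablation comparisons.

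Promoters are shown for the members that were called in both the 0g and the ablation comparison of untreated TOs and have an entry, to set side by side genes that rose (Bcl2l1, Bcl2, Bid) and fell (Mcl1, Bcl2l11). 8 of the 10 members matched the RefSeq promoter table (GRCm38.p6), and where it lists several starts for a gene, the farthest upstream of these was taken. The annotated gene spans of Bcl2l1, Mcl1 and Bid reach into or past their windows. Each line gives the 250 bases before the start, 5′ to 3′ on the gene's strand, with motif matches in capitals.
Bcl2l1, chr2:152831729-152831978, minus strand: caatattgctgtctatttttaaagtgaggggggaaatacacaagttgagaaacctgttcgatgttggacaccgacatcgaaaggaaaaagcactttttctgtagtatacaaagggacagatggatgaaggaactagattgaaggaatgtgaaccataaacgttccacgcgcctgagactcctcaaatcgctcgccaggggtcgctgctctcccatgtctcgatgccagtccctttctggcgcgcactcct
Bcl2, chr1:106714291-106714540, minus strand: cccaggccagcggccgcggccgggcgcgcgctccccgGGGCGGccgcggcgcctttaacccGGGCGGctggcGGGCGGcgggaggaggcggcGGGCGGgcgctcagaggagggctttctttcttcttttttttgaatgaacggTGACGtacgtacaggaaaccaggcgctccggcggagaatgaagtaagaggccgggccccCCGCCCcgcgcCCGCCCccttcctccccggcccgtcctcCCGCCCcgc
Mcl1, chr3:95658471-95658720, plus strand: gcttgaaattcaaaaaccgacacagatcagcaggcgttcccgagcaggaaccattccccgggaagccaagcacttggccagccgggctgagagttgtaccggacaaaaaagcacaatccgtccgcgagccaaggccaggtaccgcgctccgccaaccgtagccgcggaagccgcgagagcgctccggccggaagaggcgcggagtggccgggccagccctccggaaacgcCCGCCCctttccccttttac
Bid, chr6:120916825-120917074, minus strand: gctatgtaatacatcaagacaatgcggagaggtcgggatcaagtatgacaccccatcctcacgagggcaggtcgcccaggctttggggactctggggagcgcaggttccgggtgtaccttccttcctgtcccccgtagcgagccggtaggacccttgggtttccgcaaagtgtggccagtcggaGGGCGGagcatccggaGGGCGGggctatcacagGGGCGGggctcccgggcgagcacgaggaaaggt
Bcl2l11, chr2:128125788-128126037, plus strand: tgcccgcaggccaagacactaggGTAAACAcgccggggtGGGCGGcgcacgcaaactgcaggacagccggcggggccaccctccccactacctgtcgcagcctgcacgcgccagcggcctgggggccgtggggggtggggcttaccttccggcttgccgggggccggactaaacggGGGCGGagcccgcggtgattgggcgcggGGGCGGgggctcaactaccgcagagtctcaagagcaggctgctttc

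The letters searched, on both strands, were TGACGTCA (CRE), TGACG (the CRE core, which a full CRE also holds), TGANTCA (AP-1), GTAAACA (FOXO), CACGTG (E-box) and GGGCGG (GC box). The window shown for Bcl2l11 held a FOXO match, as did 3.17% of 32851 windows of this length in the table, and 3 GC boxes. The window of its other listed start held 2 GC boxes and no FOXO match. The GC box occurred in 32.7% of all windows, and in those of Bcl2, with 7, Mcl1, with 1, and Bid, with 3. The Bcl2 window also held a CRE core, as did 17.8% of all windows. The Bcl2l1 window held none of the 6 motifs. A match is a description of the letters and not a site in use.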

How the data were processed

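Illumina arrays of the Mouse Ref-8 design measured RNA of 8 conditions in duplicate. Intensities, deposited by the authors, are bead-summarised and not normalized between arrays. Each has a deposited detection p-value against the negative controls of its array. The log2 values that the authors normalized with lumi, per the labels, served only as an alternative; within each array their order was that of the intensities (rank correlation 1). The arrays' number limits the precision.

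Intensities were background-corrected and quantile-normalized with neqc of limma 3.58.1 (offset 16) on R 4.3.3. Probes with a detection p under 0.05 on at least 2 arrays were tested. One fit of 8 condition means (lmFit, eBayes) left 8 residual degrees of freedom, with 4.98 from the prior, and gave 12 contrasts and 4 interactions. Adjustment was by Benjamini-Hochberg across the 15279 tested probes, and a probe was called below 0.05 whatever its fold change. ± values are standard errors of the fit. Where a probe was undetected on both arrays of a group, the fold is a bound against the higher, per array, of the lowest detected signal and the probe's own. Pathway lists used 1 probe per gene, and the 2 largest called rises and falls of each list were eligible to be named. Members, lists and tests were chosen with earlier results of these data known.

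Alternatives were no background correction, an offset of 50, cyclic loess, the authors' values, no filter or detection on 8 arrays, fits of fewer groups, a variance trend with robust estimation, array weights, the model of Wright and Simon, replicate blocks, fold limits, and leaving out each array. The steps were checked on simulated intensities, where somewhat fewer changed probes were called than theory gave; the tolerance of that check was set after its first outcomes were seen. Promoter sequences came from RefSeq (GRCm38.p6), and figures were drawn with matplotlib 3.10.9.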

Additional observations from a re-analysis of the deposited data

Results flagged for a closer look

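For 15 values the difference between 2 groups in their response was itself called (limma interaction terms, n = 2 arrays per condition). Of all tested probes, 24.2% were called for the genotype by gravity interaction without treatment and 11.2% with it. The shares were 2.75% for treatment by gravity in Pthrp+/+ TOs and 1.92% for treatment by genotype at 0g. Between genotypes, the untreated response to 0g (Pthrp-/- minus Pthrp+/+) differed for both Bcl2l11 probes (1.14, adjusted p = 8.77e-05, and 1.54, adjusted p = 0.00033), Bik (1.28, adjusted p = 5.23e-05), Bbc3 (0.51, adjusted p = 0.043), Pmaip1 (-1.19, adjusted p = 0.00137), Bid (-0.66, adjusted p = 0.0118) and 2 Bcl2l1 probes (-0.97, adjusted p = 0.00636, and -0.93, adjusted p = 0.0335). The treated response differed for both Bcl2l11 probes (1.13, adjusted p = 0.000208, and 0.80, adjusted p = 0.0439), Bid (-0.79, adjusted p = 0.00727), Pmaip1 (-0.97, adjusted p = 0.0107) and Bcl2l1 (-0.87, adjusted p = 0.0235). These genotype values all depend on the 0g and 1g labels of the Pthrp-/- arrays, which were kept as given. Bik differed in its response to PTHrP between 0g and 1g in Pthrp+/+ TOs (1.03, adjusted p = 0.00362). The treatment by genotype interaction at 0g was also called for Bik (-1.06, adjusted p = 0.00519). Bik was undetected in all Pthrp-/- groups, where no response could be seen. The values of -1.06 and 1.28 therefore rest on the change in Pthrp+/+ TOs alone.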

How the results depend on the processing

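The comparisons gave 59 called values for member probes, and 0 of them changed direction under the processing alternatives or without any array. The share of all probes called is given with each comparison above. Under every processing alternative except the fold limits, which were applied only to counts, 33 stayed called, and 28 also without each array in turn. With a 2-fold limit in either direction, and at adjusted or unadjusted p alike, the counts were 2 for 0g in untreated Pthrp+/+ TOs and 0 in the treated, 0 in both Pthrp-/- gravity comparisons, 6 for ablation at 1g with or without treatment and 1 at 0g with or without it; with limits of 1.5 and 0.65 for treatment, it was 0 in Pthrp-/- TOs at 1g. Array quality weights gave 8 for 0g in treated Pthrp+/+ TOs, 0 and 4 for 0g in untreated and treated Pthrp-/- TOs, and 1 and 11 for ablation at 0g without and with treatment. A fit of only the groups compared gave 0 for 0g in untreated Pthrp-/- TOs, 1 for untreated ablation at 0g, 1 for treatment in Pthrp+/+ TOs at 0g and 0 in Pthrp-/- TOs at 1g; only the arrays of the genotype compared gave 1 and 0 for the first and the last of these. Ablation at 0g came to 2 and 4 without and with treatment under cyclic loess, and untreated to 1 with the authors' values and 2 without a filter. The authors' values also gave 3 for the treated genotype by gravity interaction and 2 for the treatment by gravity interaction. The cause of these shifts was not tested.

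Same-numbered arrays deviated together weakly (correlations of -0.3 to 0.22 over 28 pairs of groups, 7 of them above 0.1), so the numbers were not taken to pair the arrays. A replicate block within genotype gave 4 for treated ablation at 0g, and that block or one over all arrays gave 0 for treatment in Pthrp-/- TOs at 1g; both left every other count within 1.5 times.

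Leaving out each array in turn, the counts ranged from 6 to 9 for 0g in untreated Pthrp+/+ TOs, 0 to 3 in the treated (0 or 1 without any array compared), 0 to 4 in untreated Pthrp-/- TOs (0 without array 1 of either group, 1 without array 2 at 1g, 4 without array 2 at 0g) and 2 to 4 in the treated (4 without either untreated 0g array). For ablation they ranged from 9 to 17 at 1g without treatment (10 without Pthrp+/+ array 2, 9 without Pthrp-/- array 1), 10 to 14 with it, 2 to 4 at 0g without it (2 without Pthrp+/+ array 2) and 2 to 10 with it (4 and 2 without Pthrp+/+ arrays 1 and 2, 3 without Pthrp-/- array 1). For treatment they ranged from 1 to 4 in Pthrp+/+ TOs at 0g (4 without untreated array 2, 1 without each of the others), 0 to 1 in Pthrp-/- TOs at 1g (0 without any 1 of 12 arrays) and 0 to 3 at 0g (3 without untreated array 2). For the treated genotype by gravity interaction they ranged from 2 to 6 (2 without Pthrp+/+ array 2 at 1g, 3 without Pthrp+/+ array 1 at 0g, Pthrp-/- array 2 at 1g or either Pthrp-/- array at 0g).

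With the Pthrp-/- arrays labelled with the other gravity, chosen after seeing the data, 3 ablation values that were not called took the opposite sign and were called: Bcl2 (a dim probe, treated, 1g) at -0.48, Bcl2l11 (second probe, untreated, 0g) at -0.68 and Bbc3 (a dim probe, untreated, 1g) at 0.46. Probes near the detection floor (log2 4.79 to 5.06), among them Bak1 and the dimmer probes of Bcl2, Bcl2l1 and Bbc3, leave little room to measure a fall. The 2 arrays per condition limit every test.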
